A study of Homo sapiens with 23 samples.

Results

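The BH3-only genes encode small death-promoting relatives of BCL2. The 8 members, BMF, BCL2L11 (the protein BIM), BBC3 (PUMA), PMAIP1 (NOXA), HRK, BIK, BAD and BID, were taken by symbol from a table of raw counts over 28395 genes, and each symbol matched 1 row. All 8 passed the filter on low counts that left 16468 genes for testing. The cells were H929, MM1S, OPM2 and RPMI-8226, 4 established human lines of multiple myeloma, a plasma cell cancer. Each carried an inducible guide RNA, either against IRF4 (21B in the labels) or one called EV, a name that the labels leave unexplained. All groups, EV included, had received doxycycline for 48 hours to switch the guide on, and the series describes the system as CRISPR inactivation. The IRF4 groups held 3 libraries per line (12 in all) and the EV groups 3, except MM1S EV with 2 (11 in all). Each line is a single established line, and nothing in the labels ties replicates to separate cultures, so p-values cover only the spread between these libraries, which may be technical. The title of the series names BMF and BIM as targets of repression by IRF4. The comparisons below ask how far each BH3-only gene changed with the IRF4 guide, in which lines, and how the balance among the members moved.

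A BH3-only protein uses a short helix, the BH3 domain, to dock into the groove of pro-survival proteins such as BCL2, BCL-XL and MCL1. Some members, BIM, PUMA and BID among them, can also engage BAX and BAK directly, which then permeabilise the outer mitochondrial membrane. Cells tune the class at several levels: BIM, BMF, PUMA, NOXA and HRK largely through the amount of transcript, BAD through phosphorylation, and BID through cleavage by caspase 8. IRF4 is a lymphoid transcription factor on which myeloma cells depend, and it binds DNA at GAAA-containing elements, alone or beside an ETS partner.

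The upstream windows of BMF and BCL2L11 are shown because these are the members called higher in all 4 lines below. They cover the 250 bases before an annotated start (RefSeq, GRCh38.p14) and are written 5′ to 3′ on the gene's strand. Capitals mark GAAA or its reverse complement, and also the full ETS-IRF element where it occurs.
BMF chr15:40106967-40107216 (minus strand): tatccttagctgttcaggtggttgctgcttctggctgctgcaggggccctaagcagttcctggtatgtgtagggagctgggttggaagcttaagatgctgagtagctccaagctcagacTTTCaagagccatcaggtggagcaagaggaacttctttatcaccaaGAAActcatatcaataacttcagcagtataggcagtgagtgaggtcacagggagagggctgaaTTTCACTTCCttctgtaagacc
BMF chr15:40108880-40109129 (minus strand): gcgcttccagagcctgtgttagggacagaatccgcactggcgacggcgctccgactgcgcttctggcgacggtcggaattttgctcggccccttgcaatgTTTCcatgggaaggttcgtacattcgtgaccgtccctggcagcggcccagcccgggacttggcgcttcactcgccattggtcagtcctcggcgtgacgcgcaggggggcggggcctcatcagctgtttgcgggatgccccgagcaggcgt
BCL2L11 chr2:111120664-111120913 (plus strand): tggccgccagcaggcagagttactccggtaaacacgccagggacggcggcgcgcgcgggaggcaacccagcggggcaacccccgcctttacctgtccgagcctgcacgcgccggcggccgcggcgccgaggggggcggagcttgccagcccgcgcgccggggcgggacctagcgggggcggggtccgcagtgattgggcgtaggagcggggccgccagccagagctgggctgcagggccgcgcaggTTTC
The first BMF window lies inside the annotated gene (chromosome 15, 40087890 to 40108879) and precedes an internal start, while the second precedes the outermost start. The ETS-IRF element (GGAA, any 2 bases, then GAAA), searched on both strands, occurred in 1 of the 13 windows of the 7 members with an entry, the first BMF window, and in 2.41% of all 35116 windows of this length. The interferon response element (GAAA, any 2 bases, then GAAA) occurred in none of the 13 and in 3.02% of all windows. GAAA alone, which the longer motifs contain, was in 12 of the 13 and in 82.6% of all. These are matches of letters only. BIK had no entry.

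IRF4 itself, on chromosome 6, was lower with its guide in every line by edgeR's quasi-likelihood test. In the order H929, MM1S, OPM2, RPMI-8226 the log2 fold change was -1.58 ± 0.18 (SE), -1.37 ± 0.20, -0.66 ± 0.18 and -1.10 ± 0.18, with adjusted p from 7.83e-07 to 0.00675. Levels are given as CPM, read counts per library total after scaling with trimmed mean of M-values (TMM) factors. In OPM2 the 2 groups overlapped: the IRF4 libraries read 890.2, 1331 and 897 CPM and the EV libraries 1570, 2031 and 1319 CPM. Plasma cell markers summed to 3505 to 14972 CPM in EV libraries and 4122 to 17745 CPM in IRF4 libraries, and none of the 8 was at 0 in all libraries of a guide. Much of the sum was JCHAIN, at 2207 to 13025 CPM over the 23 libraries. Some markers ran low in places: SLAMF7 read 0.782 to 417, CD38 6.51 to 92.5 and TNFRSF17 7.20 to 908 CPM. The remaining ones stayed at 58.5 CPM (PRDM1) or above. T and NK cell markers (4 genes) summed to 0 to 15.7 CPM with EV and 0.578 to 126 CPM with the IRF4 guide, CD3E reaching 119 CPM and CD3D being 0 in 19 of the 23 libraries. Myeloid markers summed to at most 3.29 and 16.2 CPM, stromal and epithelial markers to at most 237 and 194 CPM with COL1A2 at 0 in all 23 libraries, and erythroid markers to at most 3.27 and 2.28 CPM. The part of these genes in the results was not tested. Totals ran from 6907390 to 28486960 counts per library, of which the 8 members took 0.0155 to 0.145%.

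BMF, a BH3-only protein held at the cytoskeleton through dynein light chain, rose most in 3 of the 4 lines among the members with a fitted fold change. With the EV guide it read 47.6, 40.0 and 52.7 CPM in H929, 245 and 227 CPM in MM1S, 66.2, 66.9 and 83.7 CPM in OPM2, and 63.6, 49.0 and 57.4 CPM in RPMI-8226. With the IRF4 guide it read 472, 494 and 427 CPM in H929, 806, 805 and 853 CPM in MM1S, 720.0, 700.4 and 639 CPM in OPM2, and 172, 116 and 166 CPM in RPMI-8226. Every IRF4 library lay above every EV library of its line. Groups did not overlap for 6 members in H929 (62.1% of all genes tested), 6 in MM1S (55.4%), 5 for OPM2 (51.9%) and 4 for RPMI-8226 (43.2%), so that separation by itself was common. For BMF, MM1S, the highest line with EV, was also the highest with the IRF4 guide. In the same order of lines the log2 fold change was 3.30 ± 0.14 (SE), 1.80 ± 0.15, 3.24 ± 0.13 and 1.42 ± 0.13, with adjusted p of 1.35e-08 or below (edgeR). The rise differed between lines (edgeR F test, adjusted p = 3.78e-09). H929 and OPM2 differed by 0.05 log2 units (95% interval -0.31 to 0.42, adjusted p = 0.911; 22.9% of all genes were called in this pair), and MM1S and RPMI-8226 by 0.38 (-0.01 to 0.77, adjusted p = 0.175; 20.2% called), while H929 exceeded MM1S by 1.50 (adjusted p = 1.82e-06; 25.7% called) and OPM2 exceeded RPMI-8226 by 1.82 (adjusted p = 6.88e-08; 16% called). In bulk RNA, more cells with a transcript and more transcript per cell cannot be told apart.

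BCL2L11 encodes BIM, which binds all the main pro-survival proteins. It rose by a smaller factor, and every line showed it. EV libraries read 44.8, 45.8 and 46.8 CPM in H929, 236 and 213 CPM in MM1S, 85.5, 95.7 and 95.4 CPM in OPM2, and 152, 154 and 134 CPM in RPMI-8226. IRF4 libraries read 71.4, 79.5 and 87.1 CPM, 385, 393 and 367 CPM, 153, 164 and 180 CPM, and 307, 286 and 312 CPM, in the same order of lines. The 2 groups did not overlap in any line. The log2 fold change was 0.79 ± 0.08 (SE), 0.77 ± 0.09, 0.85 ± 0.08 and 1.04 ± 0.08 in H929, MM1S, OPM2 and RPMI-8226 (edgeR, adjusted p of 8.21e-08 or below). The difference between lines missed the threshold (F test, adjusted p = 0.150). The widest gap, MM1S minus RPMI-8226, was -0.27 (95% interval -0.51 to -0.03, adjusted p = 0.103). Leaving out H929 IRF4 replicate 3 brought the F test to an adjusted p of 0.0467. BMF and BCL2L11 were the members called higher in all 4 lines, as were 5.14% of the genes tested. None was called lower in all 4 lines (3.83% of genes) or in opposite directions in different lines (8.07%).

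**Figure D1:**
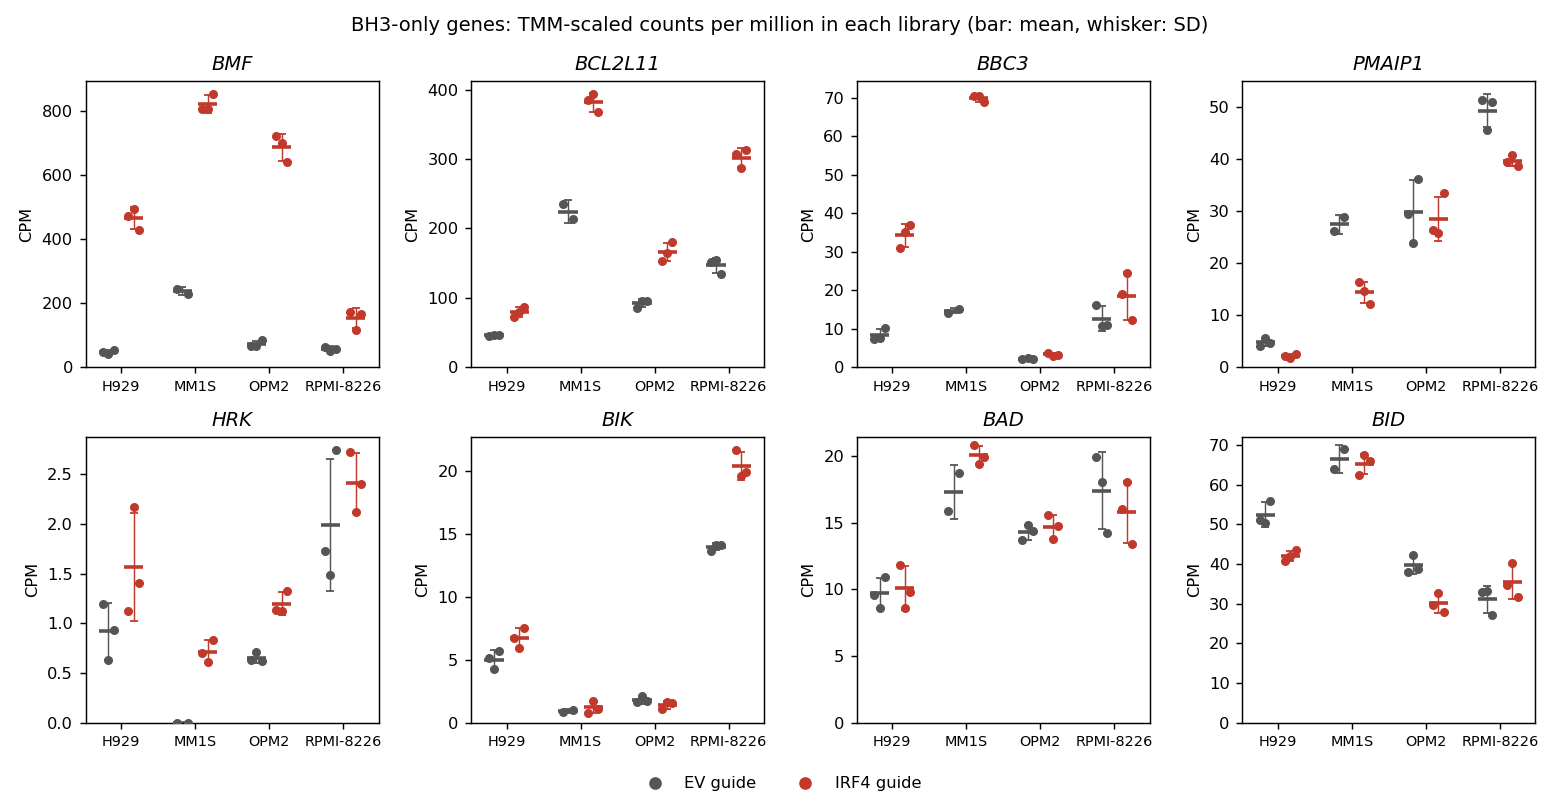
Level of each BH3-only gene in every library, in TMM-scaled CPM on linear axes from 0, by line, with EV libraries in grey and IRF4 guide libraries in red (bar, mean; whisker, SD). BMF and BCL2L11 separate by guide in all 4 lines, BBC3 is far higher with the IRF4 guide in H929 and MM1S, and PMAIP1 is lower there.

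BBC3 and PMAIP1 encode PUMA and NOXA, and in H929 and MM1S they moved in opposite directions. BBC3 read 7.26, 7.50 and 10.1 CPM with EV and 31.0, 34.99 and 36.8 CPM with the IRF4 guide in H929, and 14.2 and 15.1 CPM against 70.6, 70.5 and 68.9 CPM in MM1S. The groups stood well apart in both lines, with log2 fold changes of 2.03 ± 0.19 (SE, adjusted p = 1.08e-09) and 2.26 ± 0.22 (adjusted p = 1.52e-08, edgeR). In OPM2, where the gene was near the bottom of its range, EV libraries read 2.19, 2.37 and 2.03 CPM and IRF4 libraries 3.74, 2.80 and 3.24 CPM. The groups did not overlap, yet the log2 fold change of 0.60 ± 0.26 missed the threshold (edgeR, adjusted p = 0.0669). It was called without RPMI-8226 IRF4 replicate 2 (adjusted p = 0.0289), RPMI-8226 IRF4 replicate 3 (0.0146) or RPMI-8226 EV replicate 1 (0.0403), and also with no filter on low counts (0.00524), with OPM2 fitted alone (0.0272) and by DESeq2 (0.0270). In RPMI-8226 the groups overlapped, with 16.3, 10.7 and 10.9 CPM against 18.9, 24.5 and 12.1 CPM. The log2 fold change there was 0.54 ± 0.18 (edgeR, adjusted p = 0.0243). That call was lost without RPMI-8226 IRF4 replicate 1 (adjusted p = 0.0612), IRF4 replicate 2 (0.224), EV replicate 2 (0.148) or EV replicate 3 (0.0813), with the line fitted alone (0.144) and on the deposited log2 RPKM values with limma (0.0912). The guide effect differed between lines (F test, adjusted p = 1.01e-05). H929 and MM1S each exceeded OPM2 and RPMI-8226 by 1.42 to 1.72 log2 units (4 pairs, adjusted p of 0.00217 or below; 34.8% of all genes were called for H929 minus RPMI-8226 and 18.4% for MM1S minus OPM2). Within those pairs of lines the differences were -0.23 (H929 minus MM1S, 95% interval -0.83 to 0.36) and 0.07 (OPM2 minus RPMI-8226, -0.59 to 0.72).

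PMAIP1 encodes NOXA, which binds mainly MCL1. In H929 it read 4.11, 5.63 and 4.57 CPM with EV and 2.12, 1.81 and 2.47 CPM with the IRF4 guide, a log2 fold change of -1.06 ± 0.20 (SE; edgeR, adjusted p = 3.52e-05). In MM1S it read 26.2 and 28.8 CPM against 16.3, 14.6 and 12.2 CPM, a log2 fold change of -0.90 ± 0.16 (SE; edgeR, adjusted p = 3.01e-05). The guide groups did not overlap in either line. In RPMI-8226 it fell from 51.4, 45.7 and 50.9 CPM to 39.4, 40.8 and 38.7 CPM, with groups apart but a log2 fold change of only -0.31 ± 0.12 (edgeR, adjusted p = 0.0469). Leaving out any 1 of 11 libraries in turn moved that adjusted p to between 0.0507 and 0.148: H929 IRF4 replicate 1, MM1S IRF4 replicate 2, both MM1S EV libraries, OPM2 EV replicate 1, and all 6 RPMI-8226 libraries. In OPM2 the groups overlapped at 29.5, 23.8 and 36.1 CPM against 26.4, 25.8 and 33.4 CPM, with a log2 fold change of -0.08 (95% interval -0.34 to 0.17). The effect differed between lines (edgeR F test, adjusted p = 0.000776), being lower in H929 and MM1S than in OPM2 and RPMI-8226 (4 pairs, adjusted p from 0.00233 to 0.0316). The weakest of these pairs, MM1S minus RPMI-8226 (-0.59, adjusted p = 0.0316), missed the threshold without MM1S IRF4 replicate 2 (0.0568) or 3 (0.0783), MM1S EV replicate 2 (0.0588) or 3 (0.145), or RPMI-8226 EV replicate 2 (0.0786). On the deposited log2 RPKM values with limma the log2 fold change in H929 was -1.78 (adjusted p = 3.69e-09), and RPMI-8226 was not called (adjusted p = 0.0987).

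HRK, a sensitiser best known from neurons, was the least abundant member. Neither MM1S EV library held a count of HRK, and the 3 MM1S IRF4 libraries held 20, 6 and 6 counts. With a floor of 3 counts over the EV group the level was at least 4.39-fold higher with the IRF4 guide, and the gene was called (edgeR, adjusted p = 0.000327). The floor allows for counting error in the EV group only, since the IRF4 counts were taken as read. Spread between libraries is not in it either. In OPM2 HRK rose from 0.631, 0.712 and 0.617 CPM to 1.13, 1.12 and 1.33 CPM, a log2 fold change of 0.89 ± 0.32 (SE; edgeR, adjusted p = 0.0258). That call was lost without OPM2 IRF4 replicate 3 (adjusted p = 0.0758), OPM2 EV replicate 1 (0.0858) or OPM2 EV replicate 3 (0.0803), and on the deposited log2 RPKM values with limma (log2 fold change 0.23, adjusted p = 0.564). In H929 (0.56, 95% interval -0.08 to 1.20) and RPMI-8226 (0.37, -0.16 to 0.90) the log2 fold change missed the threshold and the groups overlapped. The difference between lines passed the F test (adjusted p = 0.00807), but not without MM1S EV replicate 2 (0.0704) or MM1S EV replicate 3 (0.0571).

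BIK sits at the endoplasmic reticulum and binds pro-survival proteins. It was highest in RPMI-8226, where it rose from 13.7, 14.2 and 14.1 CPM to 21.7, 19.6 and 19.97 CPM, a log2 fold change of 0.55 ± 0.15 (SE; edgeR, adjusted p = 0.00464). In H929 it went from 5.11, 4.25 and 5.68 CPM to 6.69, 5.91 and 7.54 CPM (log2 fold change 0.41 ± 0.17, adjusted p = 0.0434). Both pairs of groups stood apart. The H929 call was lost without H929 IRF4 replicate 1 (adjusted p = 0.0946), H929 IRF4 replicate 3 (0.214), H929 EV replicate 1 (0.0947), H929 EV replicate 2 (0.121), RPMI-8226 EV replicate 1 (0.0507) or RPMI-8226 EV replicate 2 (0.0511), with H929 fitted alone (0.109) and with no filter (0.0715). On the deposited log2 RPKM values with limma BIK was called in neither RPMI-8226 (0.49, adjusted p = 0.101) nor H929 (0.02, adjusted p = 0.934), and it was called lower in OPM2 (-0.86, adjusted p = 0.00363). Counts were low in MM1S (0.24, 95% interval -0.58 to 1.06) and OPM2 (-0.31, -0.78 to 0.16), and the groups overlapped. The difference between lines missed the threshold (F test, adjusted p = 0.0633). It passed on the deposited log2 RPKM values (0.00768) and without MM1S IRF4 replicate 1 (0.038), MM1S IRF4 replicate 2 (0.033) or OPM2 IRF4 replicate 2 (0.0485), and without the first of these the average over lines also passed (0.0285).

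BAD and BID are the members switched mainly after translation. BAD was called in no line, as were 22% of genes, with log2 fold changes from -0.16 in RPMI-8226 (95% interval -0.43 to 0.11) to 0.22 in MM1S (-0.11 to 0.54). Its EV libraries ran from 8.63 to 19.9 CPM and its IRF4 libraries from 8.57 to 20.9 CPM. BAD overlaps GPR137 on chromosome 11, which held 13246 counts in all against 6463 for BAD, and the sources used here do not say if counting was by strand. BID fell in 2 lines: in H929 from 51.2, 50.3 and 56.0 CPM to 40.7, 42.0 and 43.4 CPM, and in OPM2 from 38.1, 42.3 and 38.8 CPM to 29.6, 32.6 and 28.0 CPM. The groups stood apart in both, with log2 fold changes of -0.32 ± 0.09 (SE, adjusted p = 0.00415) and -0.40 ± 0.09 (adjusted p = 0.00104, edgeR). In MM1S (-0.03, 95% interval -0.25 to 0.19) and RPMI-8226 (0.18, -0.02 to 0.37) the groups overlapped and the test was missed. The BID effect differed between lines (F test, adjusted p = 0.00206), RPMI-8226 standing above OPM2 by 0.58 and above H929 by 0.50 log2 units (adjusted p = 0.00266 and 0.00372).

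Across the class, 6 of 8 members were called in H929 (4 higher, 2 lower; of all genes tested 58.9% were called, 32.9% higher and 26.1% lower), 5 in MM1S (4 and 1; 34.6%, 19.4% and 15.2%), 4 in OPM2 (3 and 1; 43.5%, 23.3% and 20.2%) and 5 in RPMI-8226 (4 and 1; 33.9%, 19.2% and 14.7%). On the average of the lines, HRK included, 6 were called (4 higher, 2 lower; of all genes 57.7%, 32.6% and 25.1%). With only 8 members, the counts called in H929, in OPM2 and on the average lay near the background. No count was tested against it. The members' median log2 fold change was 0.48, 0.50, 0.33 and 0.45 in the order H929, MM1S, OPM2, RPMI-8226, against 0.10, 0.07, 0.03 and 0.04 over all genes tested. The effect differed between lines for 5 members (BMF, BBC3, PMAIP1, HRK and BID), against 48.0% of all genes, which with 8 members is also near the background.

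**Figure D2:**
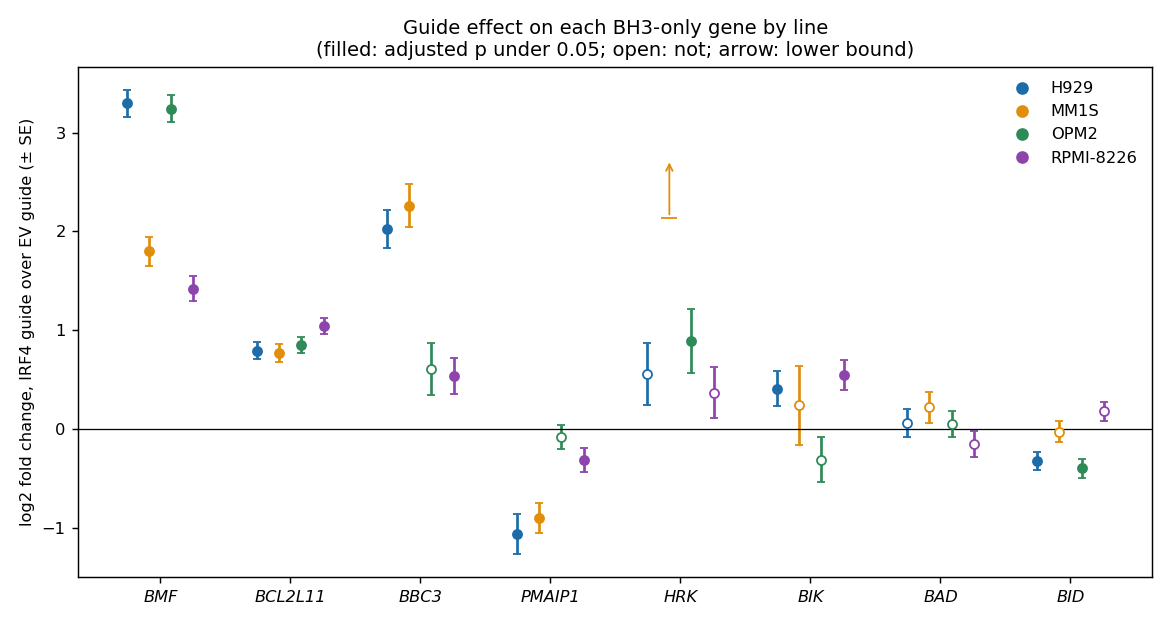
Log2 fold change (IRF4 guide over EV guide) ± SE of each member, by line. Filled points passed an adjusted p of 0.05. The arrow at HRK in MM1S is a lower bound, with the EV group (0 counts) set to a floor of 3 counts. BMF spans 1.42 to 3.30 across lines and BCL2L11 0.77 to 1.04. PMAIP1 lies below 0 in H929, MM1S and RPMI-8226, and in OPM2, at -0.08, it was not called.

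The EV groups differed between lines for all 8 members (edgeR F test; 93.1% of all genes passed). Between pairs of lines the EV levels of 63.1% (H929 and MM1S), 65.4% (H929 and OPM2), 75.1% (H929 and RPMI-8226), 61.4% (MM1S and OPM2), 67.7% (MM1S and RPMI-8226) and 72.9% (OPM2 and RPMI-8226) of all genes differed. BMF was highest in MM1S (236 CPM), followed by OPM2 (72.3), RPMI-8226 (56.6) and H929 (46.7), RPMI-8226 and H929 not being separated (adjusted p = 0.0752). BCL2L11 ran from 224 CPM in MM1S through 146 in RPMI-8226 and 92.2 in OPM2 to 45.8 in H929, each step past the test. BBC3 was 14.6 CPM in MM1S and 12.6 in RPMI-8226 (adjusted p = 0.458), 8.29 in H929 and 2.20 in OPM2. PMAIP1 was 49.3 CPM in RPMI-8226, 29.8 in OPM2, 27.5 in MM1S (this pair not separated, adjusted p = 0.444) and 4.77 in H929. H929 had the lowest mean for BMF, BCL2L11, PMAIP1 and BAD. BIK ran from 13.99 CPM in RPMI-8226 to 5.01 in H929, 1.80 in OPM2 and 0.910 in MM1S. HRK was 1.99 CPM in RPMI-8226, 0.918 in H929 and 0.653 in OPM2 (this pair not separated, edgeR, adjusted p = 0.121). MM1S was at 0, and with the floor of 3 counts there the levels read in these lines were at least 3.99-fold higher. BAD (17.4 CPM in RPMI-8226, 17.3 in MM1S, 14.3 in OPM2, 9.72 in H929) and BID (66.4 in MM1S, 52.5 in H929, 39.8 in OPM2, 31.1 in RPMI-8226) varied least. For BAD, MM1S was not separated from RPMI-8226 (edgeR, adjusted p = 0.886) or OPM2 (0.131). With 1 library left out, BMF in OPM2 and RPMI-8226 (without OPM2 EV replicate 3, adjusted p = 0.127, or RPMI-8226 EV replicate 2, 0.103), BBC3 in H929 and RPMI-8226 (without replicate 1 of the EV group of either, 0.0578 and 0.118), BIK in MM1S and OPM2 (without either MM1S EV library, 0.183 and 0.0649) and BID in H929 and MM1S (without MM1S EV replicate 3, 0.0857) were no longer separated. On the deposited log2 RPKM values HRK in OPM2 and RPMI-8226 was not separated (0.0664). The separation of BAD in OPM2 and RPMI-8226 (edgeR, adjusted p = 0.0408) was lost on those values (limma, 0.407) and with no filter (0.167). It was also lost with several libraries left out in turn, such as RPMI-8226 EV replicate 1 (0.236).

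To compare members with each other, levels were divided by a length per gene implied by the authors' log2 RPKM values against the counts, giving CPM per kilobase. The median over libraries was used, since the implied length varied between them (for BBC3 from 1.53 to 2.76 kb, for HRK from 1.02 to 2.77 kb). It is therefore a scaling and not a measured transcript length. The 8 members summed to 53.2 ± 4.55 (SD, n = 3) with EV and 150 ± 4.53 with the IRF4 guide in H929, 130 ± 0.0233 (n = 2) and 285 ± 3.13 in MM1S, 68.4 ± 4.65 and 197 ± 5.73 in OPM2, and 97.9 ± 5.88 and 139 ± 5.36 in RPMI-8226. The sum rose 2.81-fold in H929, 2.18-fold in MM1S, 2.89-fold in OPM2 and 1.42-fold in RPMI-8226. Without BMF these factors were 1.26, 1.43, 1.07 and 1.25. BMF went from 17.8 to 63.1% of the sum in H929, 36.8 to 58.7% in MM1S, 21.5 to 70.7% in OPM2 and 11.8 to 22.2% in RPMI-8226. With EV the leading transcript per length was BID in H929, BMF in MM1S and PMAIP1 in RPMI-8226. In OPM2 BID (14.9 ± 0.852 CPM per kilobase), PMAIP1 (14.8 ± 3.05) and BMF (14.7 ± 2.02) lay within their SD of each other. With the IRF4 guide it was BMF in H929, MM1S and OPM2, and in RPMI-8226 BCL2L11 (31.4 ± 1.43) and BMF (30.9 ± 6.32) stood level. With GENCODE exon lengths, a choice made after seeing the data, the sum rose 3.05-, 2.20-, 3.01- and 1.50-fold. With those lengths BCL2L11 (45.3 ± 2.07) stood above BMF (27.8 ± 5.70) in RPMI-8226 with the IRF4 guide. In the EV libraries of RPMI-8226 PMAIP1 (22.1 ± 1.41) and BCL2L11 (21.99 ± 1.67) then stood level, and in those of OPM2 BCL2L11 (13.8 ± 0.867), PMAIP1 (13.3 ± 2.75) and BMF (13.3 ± 1.82) did. HRK was the member whose length differed most, 1.95 kb implied and 6.85 kb in GENCODE, and the reason was not tested.

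**Figure D3:**
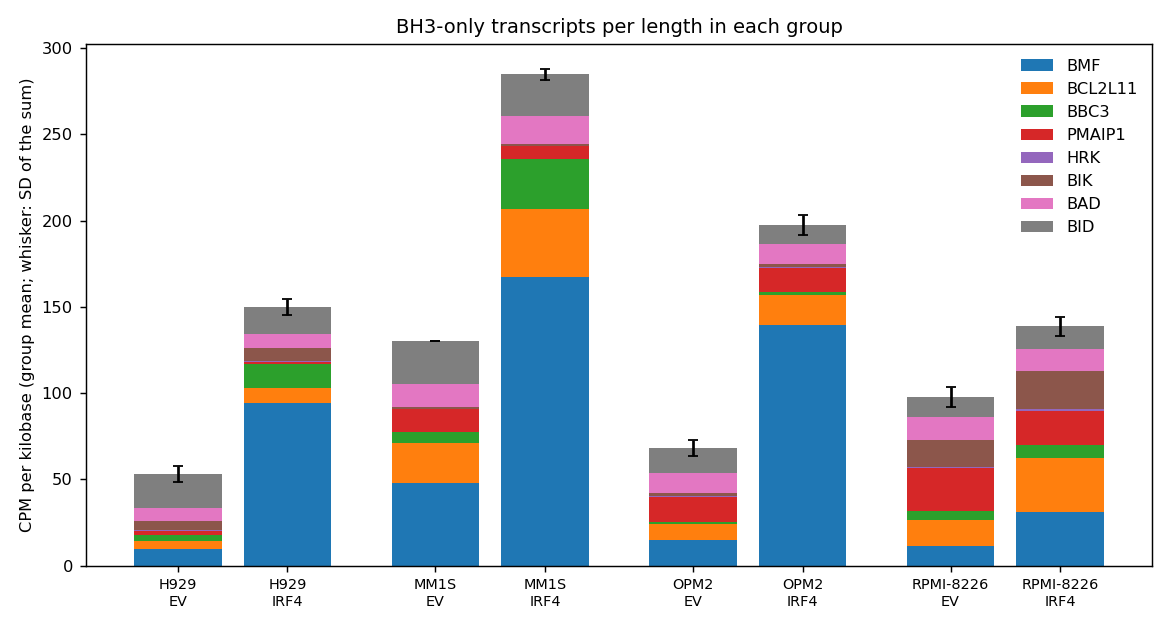
BH3-only transcripts per length, as stacked group means in CPM per kilobase by line and guide (whisker, SD of the sum). BMF makes up 63.1, 58.7 and 70.7% of the bar with the IRF4 guide in H929, MM1S and OPM2 and 22.2% in RPMI-8226.

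Ratios within a library do not depend on library scaling. The BMF to BCL2L11 ratio per length was 2.08, 1.71 and 2.20 with EV and 12.95, 12.2 and 9.60 with the IRF4 guide in H929, 2.04 and 2.09 against 4.11, 4.01 and 4.55 in MM1S, 1.52, 1.37 and 1.72 against 9.20, 8.37 and 6.97 in OPM2, and 0.820, 0.624 and 0.842 against 1.10, 0.794 and 1.04 in RPMI-8226. The groups separated in 3 lines and overlapped in RPMI-8226. Averaged over lines the ratio rose 3.00-fold (1.58 on the log2 scale; exact permutation test within lines over 80000 arrangements, two-sided p = 3.75e-05, adjusted p over the 3 ratios = 7.5e-05, smallest possible p 2.5e-05). Within a line of 3 against 3 the smallest possible p is 0.1. The BBC3 to PMAIP1 ratio went from a mean of 1.48 to 13.6 in H929, 0.444 to 4.12 in MM1S, 0.0640 to 0.0966 in OPM2 and 0.212 to 0.388 in RPMI-8226, 3.92-fold on average (exact permutation p = 5e-05, adjusted 7.5e-05). Groups overlapped in OPM2 and RPMI-8226, and PUMA transcript exceeded NOXA transcript per length in H929 with EV and in H929 and MM1S with the IRF4 guide. With GENCODE exon lengths BBC3 (2.61 ± 0.497 CPM per kilobase, SD) and PMAIP1 (2.13 ± 0.348) were not clearly apart in H929 with EV. The ratio of BAD to BID changed 1.13-fold on average (exact permutation p = 0.0521), an average over shifts in opposite directions. It was higher in H929, MM1S and OPM2, and in RPMI-8226 lower, from a mean of 1.17 to 0.930, with no overlap of the groups in any line. Its adjusted p fell below the threshold when H929 IRF4 replicate 2 (0.0380), MM1S IRF4 replicate 2 (0.0475), MM1S EV replicate 3 (0.0478), OPM2 IRF4 replicate 2 (0.0415), RPMI-8226 IRF4 replicate 3 (0.0427) or RPMI-8226 EV replicate 1 (0.0302) was left out.

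**Figure D4:**
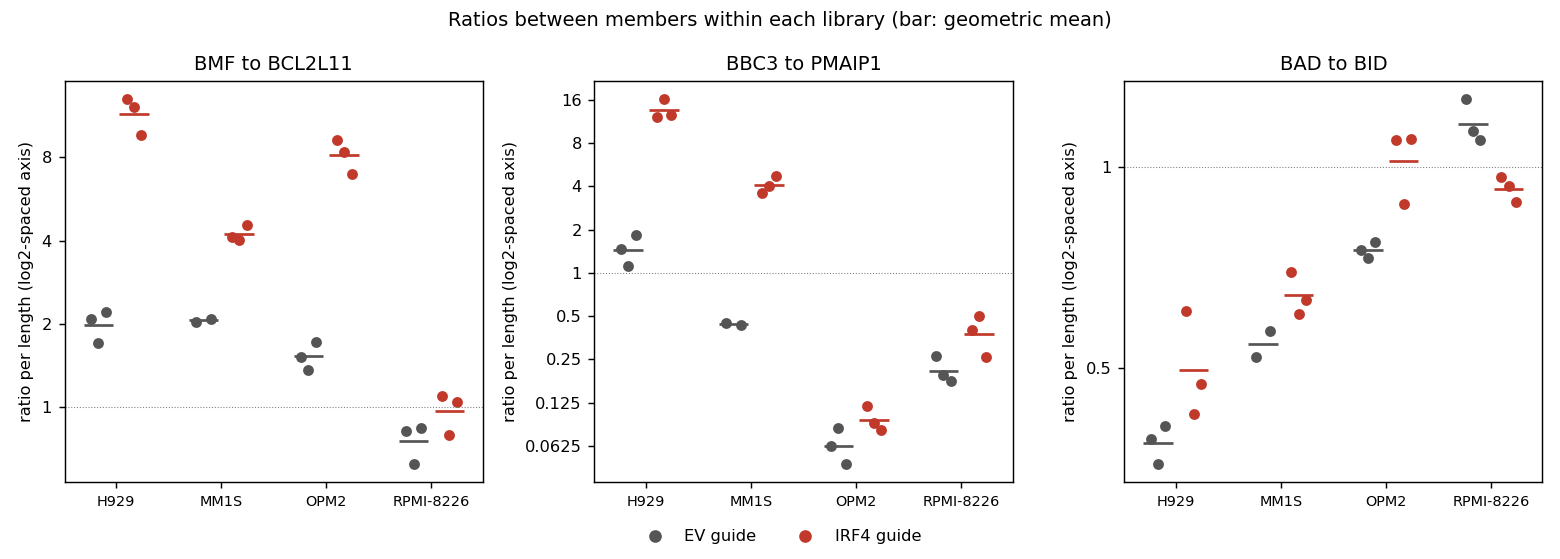
Ratio of transcripts per length within each library, on a log axis, by line and guide (bar, geometric mean). BMF to BCL2L11 and BBC3 to PMAIP1 are higher with the IRF4 guide, on average 3.00- and 3.92-fold, and BAD to BID is lower in RPMI-8226 but higher in the other 3 lines.

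Genes around the class were counted on the average of the lines, against 57.7% of all genes. Of the 6 pro-survival genes 5 were tested and 3 rose: BCL2 (log2 fold change 0.42 ± 0.05, SE), BCL2L1 (BCL-XL, 0.21 ± 0.04) and MCL1 (0.29 ± 0.06), with adjusted p of 9.03e-05 or below (edgeR). By line, BCL2 passed in H929 (1.12) and RPMI-8226 (0.42). For BCL2L1 the change was called in MM1S (0.70), H929 (0.28) and, downward, RPMI-8226 (-0.21). The rise of MCL1 passed everywhere (0.49, 0.51 and 0.28 in H929, MM1S and OPM2) but in RPMI-8226, where it stood at -0.14 (edgeR, adjusted p = 0.374). Among all 5 tested, 3 were called higher and 1 lower in H929, and 2 higher and 1 lower in RPMI-8226. A gene other than these 3 was thus called lower in H929, and another was called higher in RPMI-8226. Of the pore formers 2 of 3 were tested, BAX rising (0.53 ± 0.05) and BAK1 falling (-0.38 ± 0.04) on the average. For both the effect differed between lines (edgeR F test, as for 48.0% of all genes). By line, 1 was called higher and 1 lower in H929 and in RPMI-8226. Only 1 was called in MM1S, higher, and only 1 in OPM2, lower, so no fall passed in MM1S and no rise in OPM2. Other genes with a BH3-like stretch gave 4 rises and no fall on the average among 7 tested of 8. They were MOAP1 (0.93 ± 0.06), BNIP3L (0.51 ± 0.10), BECN1 (0.47 ± 0.05) and BCL2L13 (0.32 ± 0.04). By line, 2 of the 7 were called higher and 1 lower in H929 and in RPMI-8226. In MM1S 3 were called, all higher, and in OPM2 4, all higher. The effect differed between lines for 4 of the 7 (48.0% of all genes). Of 15 genes whose products modify or bind BH3-only proteins, 8 rose and 2 fell, among them CASP8, the protease that cleaves BID (0.65 ± 0.04), PIM1, a kinase that phosphorylates BAD (0.79 ± 0.05), MAPK3, the kinase ERK1 (0.51 ± 0.04), and YWHAQ, a 14-3-3 protein (-0.44 ± 0.04). Of 11 transcription factors known to act on BH3-only genes, 4 rose and 5 fell. FOXO3, a known activator of BCL2L11, rose in every line (0.66, 0.58, 0.51 and 0.24 in H929, MM1S, OPM2 and RPMI-8226), as did FOXO4 (1.75, 1.28, 0.91 and 0.57). NR3C1, the glucocorticoid receptor, rose by 0.31 ± 0.04 on the average. MYC fell in H929 (-1.24), OPM2 (-0.99) and RPMI-8226 (-0.94) and rose in MM1S (0.42).

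The genes whose log2 CPM followed each member most closely over the 23 libraries, which share lines and guides, were MR1, GSTA4 and YPEL5 for BMF (Pearson r 0.952, 0.950 and 0.946), KIAA1147, ICAM3 and ZMIZ2 for BCL2L11 (0.975, 0.961 and 0.960), TPRG1L, PARP3 and CBX7 for BBC3 (0.967, 0.958 and 0.955) and SMC6, ZNF551 and NUP133 for PMAIP1 (0.976, 0.974 and 0.972). For HRK they were GDPD5, C17orf97 and TBC1D5 (0.939, 0.924 and 0.905), for BAD SHARPIN, GUK1 and GRAP (0.920, 0.919 and 0.915), and for BID ZNF142, FKBP15 and CNOT6 (0.952, 0.931 and 0.930). After removing line means, but not the difference between guides, MR1 still followed BMF at 0.985. The genes nearest to BIK (ADGRG6, AP3B1 and MLKL, 0.972, 0.968 and 0.966) did not follow it within lines (-0.21, -0.00093 and 0.16), so that likeness was one of levels between lines. Within lines r was also lower for the genes nearest to BAD (0.36, 0.56 and 0.39), BID (0.71, 0.56 and 0.52) and PMAIP1 (0.80, 0.61 and 0.72). For those nearest to BMF, BCL2L11, BBC3 and HRK it ran from 0.789 to 0.985. Among members, within lines, BMF and BCL2L11 had an r of 0.89 (0.52 over the 23 libraries with line means kept) and BBC3 and PMAIP1 of -0.86 (-0.35). Since the difference between guides was kept, the within-line values carry the guide effects given above. Likeness inside a guide group was not examined.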

How the data were processed

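RNA from 23 libraries of 4 myeloma lines was analysed. Per the submitters' processing notes, Subread, featureCounts and limma were used on GRCh38 (hg38); versions, settings and strand use are not stated there. The authors deposited raw counts per gene, which were used for all tests, and log2 RPKM values for 16220 genes, used for implied lengths and as an alternative. Rows without a symbol (490) stayed in the fit. Counts were fitted in R 4.3.3 with edgeR 4.0.16 (filterByExpr by group, TMM factors 0.914 to 1.08, robust quasi-likelihood, 1 mean per group), and p-values were Benjamini-Hochberg adjusted over the 16468 genes tested, with a threshold of 0.05. The script was tested on simulated data. SE is the log2 fold change over the square root of F. Library pairs within groups (22) differed by 3.44 to 24.7 times counting error (chi-square per gene), so all were counted separately. Alternatives used DESeq2 1.42.0, limma 3.58.1, other scaling, no filter, a replicate block, single lines and each library left out. The planned display of protein BH3 stretches was not run. The members, gene lists and tests were chosen with earlier results of these data known. Named genes were IRF4, the members, up to 4 called genes per list with the smallest adjusted p, genes singled out by counts, and the 3 genes most like each member. The results of 1 of the gene lists are not reported here.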

Additional observations from a re-analysis of the deposited data

Results flagged for a closer look

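The following 5 members had a guide effect that differed between the 4 lines by the edgeR F test (48.0% of all genes did). BMF (adjusted p = 3.78e-09) rose in every line and by most in H929 and OPM2. BBC3 (adjusted p = 1.01e-05) rose by most in H929 and MM1S. PMAIP1 (adjusted p = 0.000776) fell by most in those same lines. HRK (adjusted p = 0.00807) stood out in MM1S, where EV libraries held no count. BID (adjusted p = 0.00206) fell in H929 and OPM2.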

How the results depend on the processing

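Among 8783 recomputed values, 4327 of them for the members, none that passed the test in either fit changed sign. Both totals include adjusted p-values of F tests, which have no sign to change. The 8783 also include counts and percentages of genes called, which cannot be negative. In all, 60 values changed sign, 45 of them for the members and none of those past the test (adjusted p of 0.121 or above), such as BAD in H929 (0.06, but -0.18 on the deposited log2 RPKM values) and BIK on the average (0.22, but -0.09 on those values). In RPMI-8226 the members called went from 5 to 2 on the deposited log2 RPKM values with limma, and to between 3 and 5 with 1 library left out (3 without IRF4 replicate 1 or 2, or EV replicate 2 or 3); the cause was not tested. With 1 library left out the members called ranged from 5 to 6 in H929, 3 to 5 in OPM2 and 6 to 7 on the average, and stayed at 5 in MM1S. The BAD to BID ratio ranged from 0.145 to 0.209 on the log2 scale. On deposited log2 RPKM values the share of called genes that were higher fell from 55.7 to 45.6% in H929 and from 56.5 to 46.2% on the average, with medians of all genes of -0.07 and -0.03 instead of 0.10 and 0.11.

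Replicate numbers were not treated as pairing: same-numbered libraries of a line had deviations correlated at 0.0256 to 0.183, over 0.1 in 6 of 11 pairs, although all 11 correlated best with their own number. With a replicate block within lines BBC3 in OPM2 (0.63, adjusted p = 0.0273), BIK on the average (0.32, 0.0463) and the between-line tests of BCL2L11 (0.0434) and BIK (0.0252) passed; the BAD to BID ratio was 0.166 (adjusted p = 0.148). Depth limits HRK most, at 0 to 57 counts per library.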
